A study of Mus musculus with 56 samples.

Results

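The 18 lung arrays of a chrysene gavage study in mice were ranked by the log2 ratio of Dbp, a transcription factor whose RNA rises and falls over each day under direct control of the circadian clock. The 6 arrays with the highest Dbp and the 6 with the lowest were then set against each other, 12 of the 18 lung arrays and 12 of 56 arrays in the series. The members were chosen by the Dbp value itself, in the authors' table, at the Dbp probe with the higher mean Cy5 signal in lung. Everything measured in lung between these 6 and 6 arrays is therefore given as a description, without a test.

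The mice were adult males of the MutaTMMouse strain, which carries a transgene for scoring mutations, and were about 14 weeks old. Each was gavaged once a day for 28 days, either with olive oil alone (D0) or with the polycyclic aromatic hydrocarbon chrysene dissolved in it. The daily chrysene dose was 17.5 mg/kg in D1, 50 mg/kg in D2 and 150 mg/kg in D3. The mice lived under 12 hours of light and 12 hours of dark and were killed 72 hours after their final gavage. The hour of the day at which each mouse was sampled is not given in the sources used here. Every array compared the RNA of 1 mouse and tissue in Cy5 with a common mouse reference RNA in Cy3, and liver and forestomach arrays of the same 18 mice were used beside the lung arrays. The lung RNA came from randomly taken sections of lung tissue, in which fewer cells of a type and less RNA per cell cannot be told apart.

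In the mammalian clock, the proteins encoded by Arntl and Clock (or its relative Npas2) bind as a pair to E-box sequences and switch on the Per and Cry genes, Nr1d1, Nr1d2 and Dbp. The Per and Cry proteins then inhibit that pair, and the nuclear receptors encoded by Nr1d1 and Nr1d2 repress Arntl and Nfil3. Dbp, Tef and Hlf are related activators that bind D-box sequences, where the Nfil3 protein acts as a repressor. In tissues with a running clock, lung among them, Dbp and Nr1d1 RNA peak when Arntl RNA is near its trough. A single Dbp level per mouse does not by itself fix the phase of that mouse, which was not measured.

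The ranking was gradual. The lung Dbp log2 ratio in the authors' table was 2.44, 1.54, 1.52, 1.21, 1.12 and 0.79 on the 6 highest arrays. On the 6 lowest arrays it was -0.42, -0.73, -0.80, -0.93, -1.89 and -1.95. The nearest array outside the high group had 0.43 and the nearest outside the low group had -0.41. The border of the low group thus runs between arrays that hardly differ. In the loess-normalized values these arrays change places, with -0.22 in D3 mouse 17 of the low group and -0.25 in D1 mouse 8 outside it. Both Dbp probes gave the same picture (r = 0.997 over 18 arrays), were well above background on all 18 arrays and were saturated on none.

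Dose and slide were unevenly spread over the ranking. The high group held 0 D0, 1 D1, 3 D2 and 2 D3 mice, and the low group held 3 D0, 2 D1, 0 D2 and 1 D3 mice. A difference with dose group fitted therefore rested on 1 against 2 mice in D1 and 2 against 1 in D3, because D0 and D2 each had arrays on 1 side of the comparison. Of the 3 glass slides that carried the lung arrays, slide 1 held 4 low and 0 high arrays, slide 2 held 0 low and 4 high arrays, and slide 3 held 2 of each. By dose group, the loess-normalized lung Dbp ratio was -0.51 ± 0.89 (SD, n = 5) in D0, -0.17 ± 1.22 (SD, n = 5) in D1, 1.59 ± 0.85 (SD, n = 3) in D2 and 0.76 ± 0.87 (SD, n = 5) in D3. Slide and Dbp group cannot be told apart on slides 1 and 2.

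The ranking was shared by other tissues of the same mice. Forestomach Dbp had a median log2 ratio of -0.66 (lowest -1.45, highest 0.45) in the 6 mice high in lung and of -2.19 (lowest -2.56, highest -1.66) in the 6 mice low in lung, with no overlap. Liver Dbp had a median of 1.03 (lowest -0.07, highest 2.13) in the high mice and -1.98 (lowest -2.28, highest -0.18) in the low mice, again with no overlap. Over all 18 mice, with every value taken as its deviation from the dose-group mean, lung Dbp correlated with forestomach Dbp at Pearson's r = 0.894 and Spearman's rho = 0.909. A two-sided permutation test that shuffled mice within dose groups 100000 times gave p = 2e-05 for each, adjusted over both relations to 4e-05. For liver the correlation was r = 0.693 (permutation p and adjusted p = 0.00589) and rho = 0.666 (permutation p and adjusted p = 0.00821). With the slide means removed as well, r was 0.71 in forestomach (permutation p = 0.00287) and 0.393 in liver (permutation p = 0.15), so that the relation with liver was not detectable within slides. Without the 2 mice farthest from the lung median, r was 0.893 in forestomach and 0.665 in liver.

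**Figure D1:**
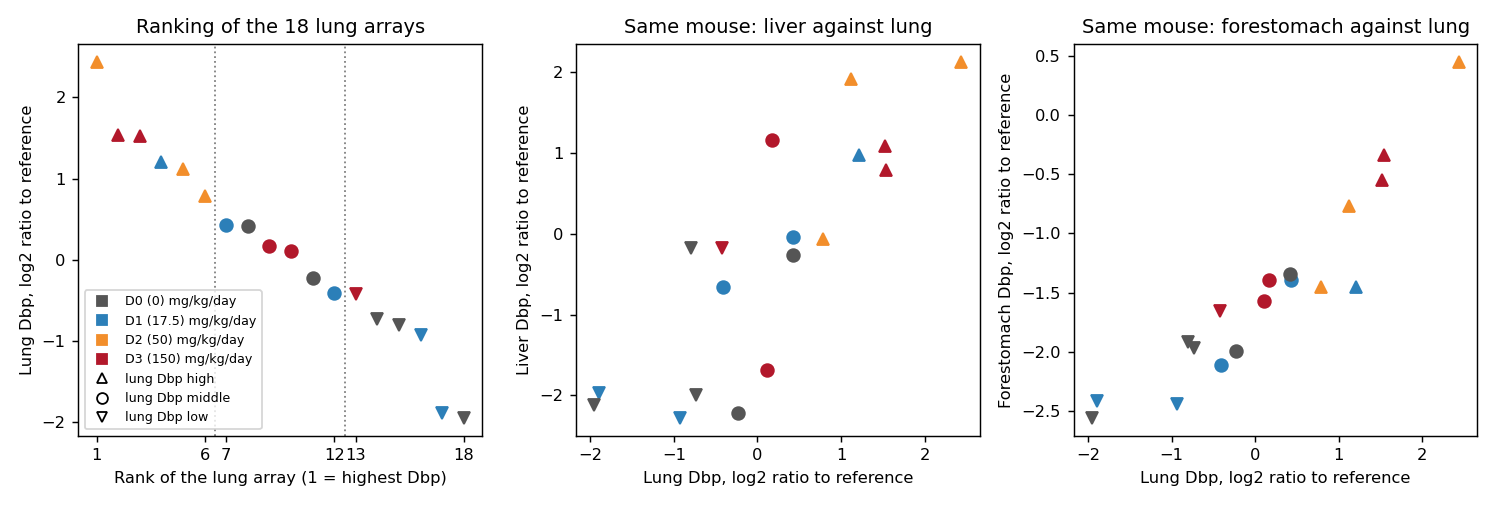
Left, the Dbp log2 ratio of each lung array against its rank, with dotted lines after the 6 highest and before the 6 lowest arrays; centre and right, Dbp in liver and in forestomach of the same mouse against lung Dbp. Colours give the dose group and symbols the lung Dbp group. All 6 high mice lie above all 6 low mice in both other tissues. Mice of D1 and D3 occur in the high, middle and low parts of the ranking, D0 mice only in the middle and low parts, and D2 mice only in the high part.

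Many core clock genes differed along the ranking in lung, some with Dbp and some against it. Of the 19 genes in the clock lists, Cry1 was not well above background on any lung array and was not tested, which left 18. In 7 of these 18 the 6 high arrays did not overlap the 6 low arrays, which for Dbp follows from the ranking itself. Dbp, Nr1d1, Nr1d2, Per3 and Hlf were higher and Arntl and Nfil3 lower in the high group. Over all 30691 probes, 160 (0.521%) lay wholly above and 97 (0.316%) wholly below in the high group, shares that come from the same contrast as the ranking and from which nothing is read.

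Arntl, the activator partner of Clock, had a median log2 ratio of -0.53 (lowest -1.63, highest -0.02) in the high group and 0.60 (lowest 0.20, highest 1.02) in the low group. The 6 arrays ranked in between lay from -0.19 to 0.36 and reached into the range of both groups. Nr1d1, a repressor of Arntl, had a median of 1.86 (lowest 1.56, highest 1.99) in the high group and 0.77 (lowest 0.16, highest 1.40) in the low group. Its relative Nr1d2 had a median of 1.26 (lowest 1.02, highest 1.83) against 0.22 (lowest -0.26, highest 0.73). Nfil3, the D-box repressor, ran the other way, with a median of -2.42 (lowest -2.65, highest -2.02) against -1.16 (lowest -1.58, highest -1.10). Hlf had a median of 1.53 (lowest 1.10, highest 2.48) against 0.44 (lowest 0.16, highest 0.99), and Per3 a median of 0.38 (lowest 0.03, highest 1.02) against -0.20 (lowest -0.50, highest 0.00).

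Other clock genes overlapped between the groups. Tef, the remaining D-box activator, had a median of 1.97 (lowest 1.62, highest 2.74) in the high group and 1.18 (lowest 1.03, highest 1.75) in the low group, so that a single low array reached into the high range. Per1, which also responds directly to glucocorticoids, was the most scattered, with a median of 0.61 (lowest -0.38, highest 1.49) against -0.44 (lowest -0.84, highest 1.51). The highest Per1 value of the low group, in a D0 mouse, exceeded every value of the high group. Clock itself, whose RNA varies little over the day in many tissues, had medians of 0.68 and 0.78, and Rora had a median of 1.35 in both groups. With dose group fitted, the lung difference, high minus low, was 2.28 for Dbp, -1.31 for Arntl, -1.21 for Nfil3, 0.93 for Nr1d1, 0.92 for Nr1d2, 0.80 for Tef and 0.59 for Hlf on the log2 scale.

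**Figure D2:**
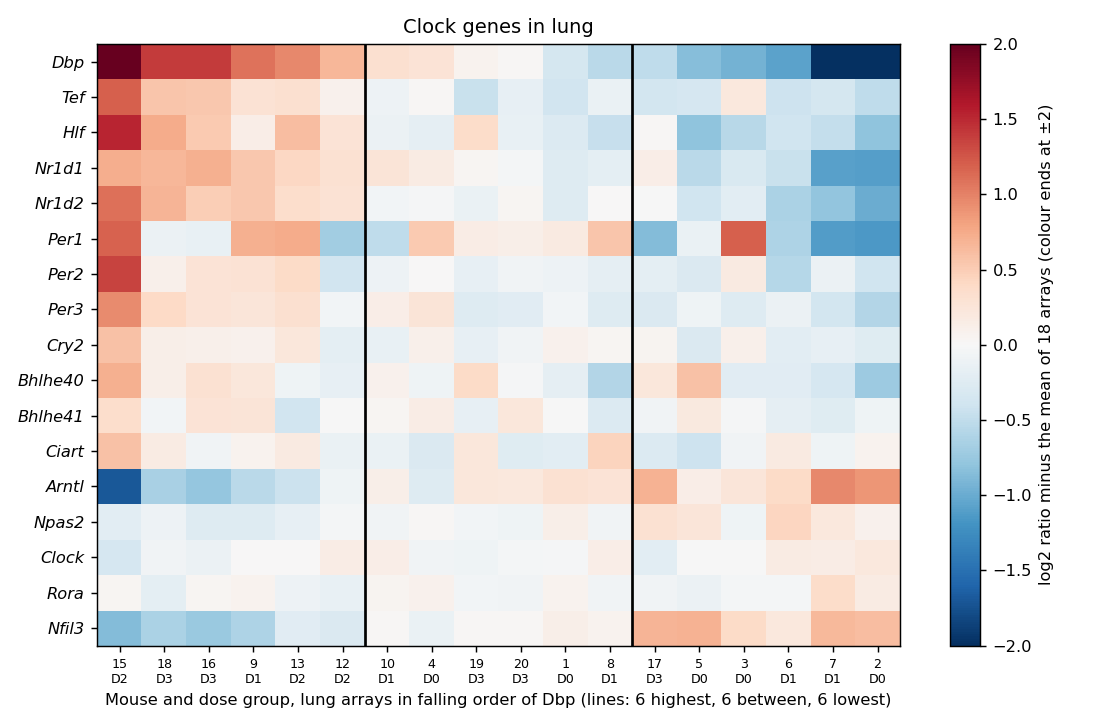
Log2 ratio of 17 clock genes on the 18 lung arrays, each gene as its deviation from the mean of the 18 arrays, with arrays in falling order of lung Dbp from left to right. Black lines separate the 6 highest, the 6 middle and the 6 lowest arrays; Dbp, Tef, Hlf, Nr1d1 and Nr1d2 turn from red to blue along the ranking, whereas Arntl and Nfil3 turn from blue to red.

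Promoter windows were searched for the E-box, the D-box and 2 nested forms of a nuclear receptor site, and 3 windows are shown because their genes differed along the ranking and each holds a different motif. They are the 250 bases before an annotated start in RefSeq (GRCm38.p6), with the motif in capitals: an E-box in Tef (chr15:81811164-81811413, plus strand), a pair of D-boxes in Per3 (chr4:151044666-151044915, minus strand), and, read on the opposite strand, the receptor site letters TAGGTCA in Nfil3 (chr13:52981040-52981289, minus strand).
Tef: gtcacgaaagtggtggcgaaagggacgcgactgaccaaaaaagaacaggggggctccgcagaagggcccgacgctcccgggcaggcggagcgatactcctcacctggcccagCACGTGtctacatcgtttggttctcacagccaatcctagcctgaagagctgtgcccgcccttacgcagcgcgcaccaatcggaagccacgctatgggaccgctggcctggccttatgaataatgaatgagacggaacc
Per3: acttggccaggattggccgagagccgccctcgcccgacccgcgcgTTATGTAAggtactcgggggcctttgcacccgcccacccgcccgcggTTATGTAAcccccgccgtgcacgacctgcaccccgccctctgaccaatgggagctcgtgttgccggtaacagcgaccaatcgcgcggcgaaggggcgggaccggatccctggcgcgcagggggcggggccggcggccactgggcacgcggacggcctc
Nfil3: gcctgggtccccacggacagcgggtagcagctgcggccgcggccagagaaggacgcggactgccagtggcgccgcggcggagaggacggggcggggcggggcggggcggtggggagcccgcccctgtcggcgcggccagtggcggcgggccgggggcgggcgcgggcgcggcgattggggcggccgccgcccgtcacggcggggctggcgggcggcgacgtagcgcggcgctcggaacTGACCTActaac

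The E-box CACGTG, which reads the same on both strands, was present in such a window for 1854 of 27025 genes (6.86%), and for 5 of the 16 clock genes with a window (Per1, Cry1, Ciart, Bhlhe41 and Tef). Of 20 genes outside the clock lists that are named below, 4 (20%) held it (Tspan4, Eva1b, Gprin3 and Srms). The D-box was searched on both strands as TTATGTAA, TTACATAA, TTACGTAA or TTATATAA and was present for 458 of 27025 genes (1.69%) and, among clock genes, for Per3, and it was present for 1 of the 20 others (5%, Cldn10). TAGGTCA on either strand was present for 689 of 27025 genes (2.55%) and, among clock genes, for Nfil3, and for 0 of the 20 others. Its shorter form AGGTCA, which every TAGGTCA contains, was present on either strand for 4260 of 27025 genes (15.8%), for 4 of the 16 clock genes (Clock, Per1, Nr1d2 and Nfil3) and for 2 of the 20 others (10%, Apoa2 and Srms). The windows of Arntl, Dbp, Nr1d1 and Hlf held none of the letters searched. A match is a description of the letters in this window, and no match in a window says nothing about sites elsewhere.

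To ask which lung genes follow Dbp, a measure that the lung ranking did not use was needed. Each mouse was given an index from its other tissues, the mean of its scaled Dbp ratios in liver and forestomach. All 18 lung arrays were fitted on this index together with dose group, and a slope is the log2 change in lung per SD of the index. No probe passed an adjusted p of 0.05 (0 of 31450, 0%, by limma with Benjamini-Hochberg adjustment), and the smallest adjusted p was 0.212, shared by 13 probes. Unadjusted, 596 probes with a positive slope (1.9%) and 777 with a negative slope (2.47%) had p of 0.05 or less. The number of such probes was 943 with slide in the fit, 2677 without a dose term and 3680 under median centring in place of loess.

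Clock genes stood at the head of this list without passing the adjusted limit. Of the 18 tested, 10 had a positive and 4 a negative slope at an unadjusted p of at most 0.05. One of the 4, Npas2, was well above background on 5 lung arrays, all of them in the low group, so that it was tested only through the arrays where it is high. Among the 10 probes with the smallest p there were 5 clock genes, and among the first 25 there were 7. Dbp in lung had a slope of 1.10 ± 0.19 (SE), Arntl of -0.66 ± 0.11, Nr1d1 of 0.51 ± 0.10, Nr1d2 of 0.47 ± 0.09, Tef of 0.44 ± 0.09, Hlf of 0.42 ± 0.08 and Per3 of 0.37 ± 0.07, each with an adjusted p of 0.212 by limma. Per2 had a slope of 0.41 ± 0.09 (SE, adjusted p = 0.471) and Nfil3 of -0.44 ± 0.11 (SE, adjusted p = 0.636). Under median centring in place of loess these slopes shrank, to 0.35 in Dbp, -0.36 in Arntl, -0.25 in Nfil3, 0.10 in Nr1d1, 0.06 in Per3 and 0.01 in Nr1d2 and Per2, and Tef had -0.04 and Hlf 0.00.

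By role, the activators and repressors had opposite slopes. The 5 activator genes, Npas2 with the limit above among them, had negative slopes with a median of -0.10, although that of Rora (-0.01) was smaller than its error of 0.05. All 9 repressor genes tested had positive slopes, with a median of 0.37, from 0.11 in Ciart to 0.66 in Per1, and 7 of them had an unadjusted p of at most 0.05. Of the D-box group, Dbp, Tef and Hlf had positive slopes and Nfil3 a negative one. Over all 14744 genes tested, with 1 probe each, the median slope was 0.00. Under median centring in place of loess, which moved that median to -0.10, the activator median was -0.12, the repressor median 0.01 and the median of the D-box group -0.02, against 0.43 after loess. In alternatives chosen after the data were seen, the activator median was -0.03 without slide 1 and the repressor median 0.22 without the D2 mice. With slide added to the fit, the slopes of Arntl (-0.62), Nr1d1 (0.49), Tef (0.49), Hlf (0.51), Per2 (0.49) and Per3 (0.41) differed from the values above by less than their errors or lay farther from 0, whereas Per1 went from 0.66 to 0.22.

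Whether probes were called depended on the dose term and on array weights. D2 and D3 mice had higher index values than D0 mice, with medians of 1.26 and 0.68 against -0.84, and D1 had -0.55. The index also differed between the lung slides, with medians of -1.27 on slide 1, 0.68 on slide 2 and -0.01 on slide 3. With slide fitted beside dose group, 0 of 31450 probes passed the adjusted limit. Without a dose term, 21 probes (0.0668%) passed the adjusted limit, among them 8 clock genes (Dbp, Hlf, Nr1d1, Nr1d2, Arntl, Tef, Per3 and Nfil3). With dose step as a linear term, 13 probes (0.0413%) passed, among them 8 clock genes (Per2 in place of Nfil3). With dose groups kept and arrays weighted by their residual spread, 12 probes (0.0382%) passed, among them 6 clock genes.

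Genes outside the clock lists that passed in at least 1 of these alternatives were few. There were 10 without a dose term (Apoa2, Batf, Gprin3, Ikzf4, Kcne2, Pcsk4, Rasl11a, Tmem171, Tubb2a and Zfp346), 4 with linear dose (Apoa2, Kcne2, Rasl11a and Wee1) and 3 with array weights (Apoa2, Ikzf4 and Srms). Apoa2 was the one gene in all 3 sets. These genes were singled out after their values were seen, and the values that follow describe them.

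Apoa2, which encodes an apolipoprotein of high-density lipoprotein, had a median log2 ratio of 0.76 (lowest 0.67, highest 1.38) in the 6 high arrays and 0.34 (lowest 0.23, highest 0.55) in the 6 low arrays, without overlap. Its slope on the index was 0.26 ± 0.05 (SE, adjusted p = 0.212 by limma), and 0.30 with slide in the fit, but -0.06 under median centring. The 8 hepatocyte markers as a list, Apoa2 among them, lay between -0.15 and 0.19 in the high and between -0.23 and 0.26 in the low arrays around their median over 18 arrays. In liver the Apoa2 difference between the same mice was 0.01 ± 0.10 (SE).

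Ikzf4, a zinc finger transcription factor of the Ikaros family, ran against Dbp. Its brighter probe had a median of 1.85 (lowest 1.57, highest 2.32) in the high arrays and 2.32 (lowest 2.08, highest 2.73) in the low arrays, and 1 high array reached into the low range. Both of its probes gave nearly the same slope, -0.32 ± 0.06 and -0.33 ± 0.06 (SE), with adjusted p of 0.27 and 0.212 by limma. The second probe was the single probe that passed when the index was built from Per3, Nr1d1, Nr1d2, Tef and Ciart instead of Dbp (slope -0.34, adjusted p = 0.00637, against 0.0151 without a dose term and 0.0403 with array weights). In forestomach of the same mice the Ikzf4 difference, high minus low, was -0.63 ± 0.25 (SE, unadjusted p = 0.0314, adjusted p = 1, by limma), and in liver -0.03 ± 0.24.

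Rasl11a, a small GTPase of the Ras-like family, had a median of -0.33 (lowest -0.83, highest -0.13) in the high arrays and 0.40 (lowest -0.02, highest 0.51) in the low arrays, without overlap. Its slope was -0.35 ± 0.07 (SE, adjusted p = 0.215 by limma), from -0.40 to -0.29 when single mice were left out. Kcne2, a regulatory subunit of potassium channels, had a median of 4.75 (lowest 4.27, highest 5.13) against 5.26 (lowest 5.16, highest 5.70), again without overlap. Its slope was -0.39 ± 0.09 (SE), and -0.23 with slide in the fit. Wee1, a kinase that holds back entry into mitosis and a known clock output in liver, overlapped between the groups and had a slope of 0.25 ± 0.05 (SE, adjusted p = 0.381 by limma) that turned to -0.09 under median centring.

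The other genes in these sets had smaller or less stable slopes. Gprin3 had -0.36 ± 0.09 (SE), but -0.18 with slide in the fit. Srms, a non-receptor tyrosine kinase, had -0.24 ± 0.05, and its groups overlapped. Zfp346 (0.19 ± 0.05) and Pcsk4 (0.16 ± 0.04) had positive slopes, of which Zfp346 came to 0.11 with slide in the fit and Pcsk4 to -0.06 under median centring. Tmem171 (-0.18 ± 0.06), Tubb2a (-0.18 ± 0.05) and Batf (-0.16 ± 0.05) had negative slopes.

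**Figure D3:**
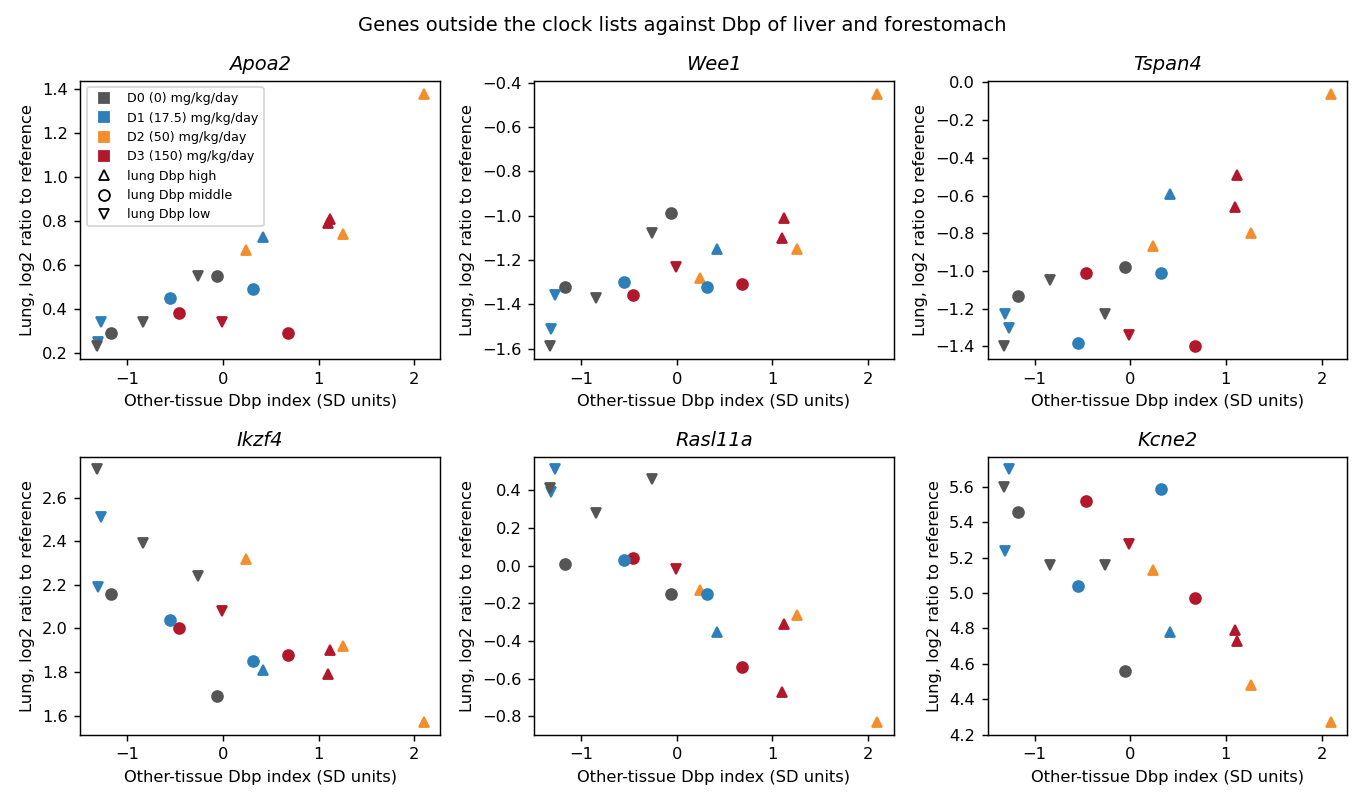
Lung log2 ratio of 6 genes outside the clock lists against the index from Dbp in liver and forestomach of the same mouse, 1 point per mouse, with colours for dose group and symbols for lung Dbp group. Apoa2, Wee1 and Tspan4 have positive slopes (0.26, 0.25 and 0.31 log2 units per SD) and Ikzf4, Rasl11a and Kcne2 negative ones (-0.32, -0.35 and -0.39); the D2 mouse with the highest index, 2.10, has the highest Apoa2, Wee1 and Tspan4. Under median centring the slopes of Apoa2, Wee1 and Tspan4 are -0.06, -0.09 and -0.01.

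The largest lung differences between the 6 high and 6 low arrays, with dose group fitted and groups that do not overlap, are given here for genes outside the clock lists. These genes were selected on the same lung arrays, so that neither their differences nor their slopes are tests. Higher in the high group were Esm1 (1.19 on the log2 scale), an endothelial secreted proteoglycan; Lrat (0.97), which stores retinol as esters; Tspan4 (0.71), a tetraspanin; Rgs2 (0.70), a brake on G protein signalling; Kif26b (0.64) and Eva1b (0.63). Lower were Pcsk2 (-1.18), a prohormone convertase; Adm (-1.01), the vasodilator adrenomedullin; Glrx (-0.91), a glutaredoxin; Ramp1 (-0.76), a receptor partner for calcitonin gene-related peptide; Cldn10 (-0.75), a claudin; and Stip1 (-0.70, but 0.03 with slide as a block), a co-chaperone of heat shock proteins. Several of these differences rest on single mice. Without D3 mouse 17, the only low mouse of D3, Esm1 had 0.66, Kif26b 0.31, Eva1b 0.36, Pcsk2 -0.48, Glrx -0.49, Ramp1 -0.20 and Adm -1.39. Without D1 mouse 9, the only high mouse of D1, Adm had -0.63 and Pcsk2 -1.88, and with slide as a block Tspan4 had 0.23 and Adm -0.14.

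Of these 12 genes, Tspan4 and Adm also had the steepest slopes on the index relative to their errors. Tspan4 had a median of -0.63 (lowest -0.87, highest -0.06) in the high arrays and -1.26 (lowest -1.40, highest -1.05) in the low arrays, and a slope of 0.31 ± 0.08 (SE, adjusted p = 0.868 by limma), or -0.01 under median centring. Adm had a median of -3.04 (lowest -3.45, highest -2.75) against -2.02 (lowest -2.73, highest -1.55), and a slope of -0.50 ± 0.13 (SE, adjusted p = 0.681). For 9 of the 12 genes the slope had an unadjusted p above 0.05, and for Esm1 it was 0.27 ± 0.17 and for Lrat 0.11 ± 0.16. In the other tissues of the same mice, none of the 12 had an adjusted p of 0.05 or less. Tspan4 differed by -0.27 ± 0.15 (SE) in liver and 0.39 ± 0.31 in forestomach, and Adm by -0.08 ± 0.11 and 0.10 ± 0.25.

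**Figure D4:**
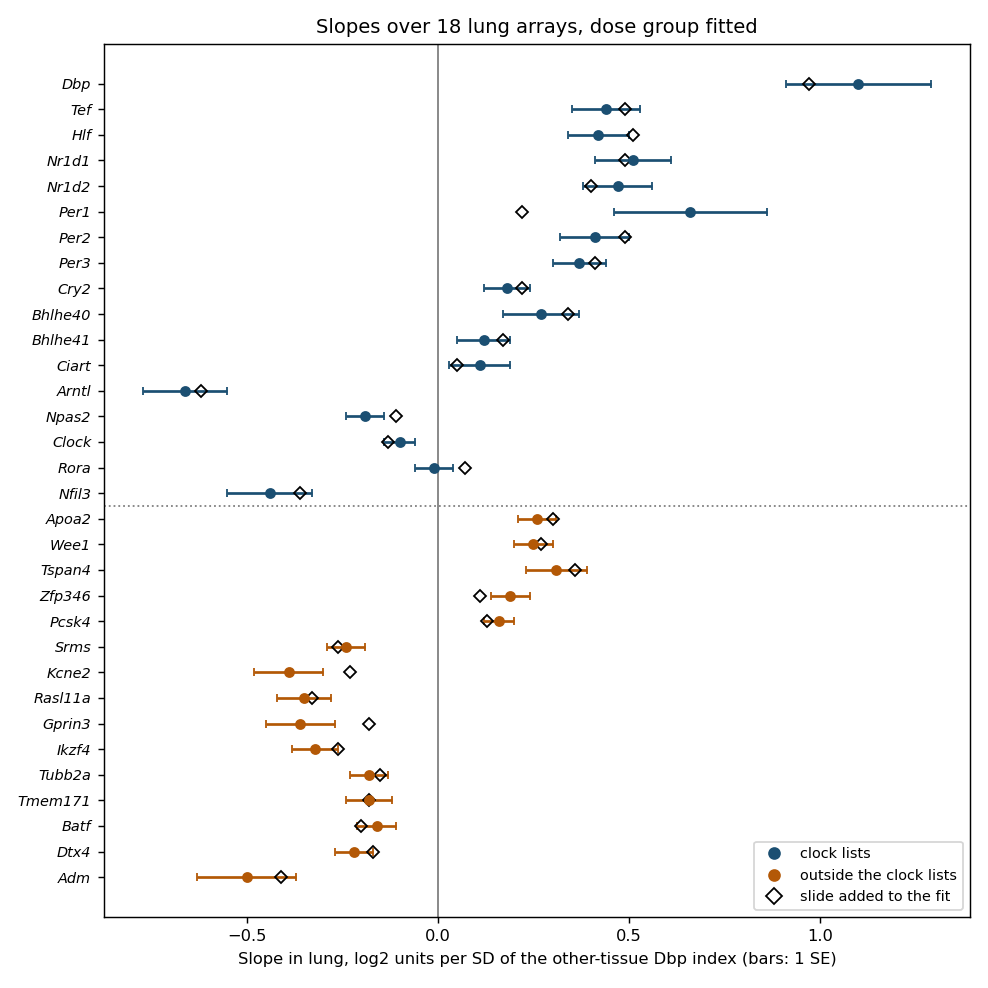
Slope of lung genes on the other-tissue Dbp index in the fit of 18 arrays with dose group (circles, bars of 1 SE), and with slide added (open diamonds). Clock genes are in blue above the dotted line and genes outside the clock lists in orange below it; Dbp has the steepest positive slope shown (1.10) and Arntl the steepest negative one (-0.66).

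Among the lists other than the clock lists, most had median slopes near 0. Over all 14744 genes, the share with an unadjusted p of 0.05 or less was 1.67% for positive and 2.37% for negative slopes. The 15 known clock-controlled output genes had 9 positive and 6 negative slopes with a median of 0.11, or 0.06 without D2 mouse 12 or without D2 mouse 15, and 5 had an unadjusted p of at most 0.05, Wee1 and Tspan4 with positive and Lonrf3, Dtx4 and Ppp1r3c with negative slopes. Dtx4, an E3 ubiquitin ligase gene of the Notch pathway, did not overlap between the groups, with a median of 0.02 (lowest -0.28, highest 0.11) in the high and 0.48 (lowest 0.30, highest 0.60) in the low arrays. The 13 glucocorticoid responsive genes had 10 positive slopes and a median of 0.21. Median centring took this median to -0.15 and that of the output genes to -0.16. Per1, which is also in the clock repressor list, and Zbtb16 had an unadjusted p of at most 0.05. Tsc22d3 and Klf9 are also among the output genes. The glucocorticoid median was 0.10 to 0.13 when D0 mouse 2, D1 mouse 9, D2 mouse 12 or D2 mouse 15 was left out. It was 0.11 without a dose term. Xenobiotic metabolism had a median of 0.01 over 22 genes and NRF2 targets of -0.01 over 13. Lipid and fasting metabolism had 0.00 over 17 and proliferation 0.04 over 17. Of the proliferation slopes 16 were positive, 2 of them (11.8% of the list) at an unadjusted p of at most 0.05. Their median was -0.02 without D1 mouse 10 and 0.11 without D2 mouse 12. Chemokines and adhesion genes had 7 positive and 7 negative slopes with a median of -0.04. Of the negative ones 3 (21.4% of the list) had an unadjusted p of at most 0.05. None of the members of these lists passed the adjusted limit.

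Heat shock genes ran below 0 as a list, with 11 of 13 slopes negative and a median of -0.20. Of the negative slopes 2 (Hsp90aa1 and Hspa5, 15.4% of the list) had an unadjusted p of at most 0.05, against 2.37% of all genes. Hspa1a, the inducible member of the HSP70 family, had a median of -0.16 (lowest -0.34, highest -0.01) in the high arrays and 0.69 (lowest -0.03, highest 3.23) in the low arrays, so that the low arrays were high and spread out. Its slope was -0.54 ± 0.33 (SE, adjusted p = 1 by limma). The positive slopes of this list were those of Cirbp (0.23 ± 0.14) and Rbm3 (0.16 ± 0.11), RNA-binding proteins that rise in the cold. The median slope of the list was -0.11 with slide in the fit, -0.08 without D1 mouse 7 and -0.01 without the 5 arrays of slide 1, an alternative chosen after the data were seen.

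**Figure D5:**
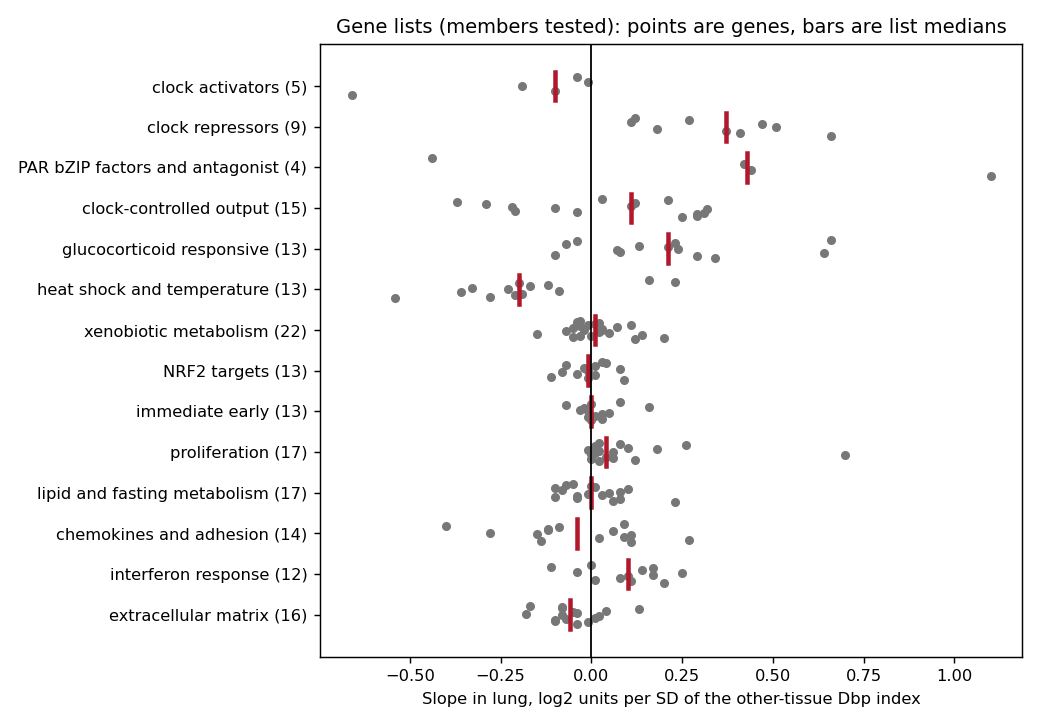
Slopes of the members of 14 gene lists in lung on the other-tissue Dbp index, with the number of members tested in parentheses, grey points for genes and red bars for list medians. The clock repressors (median 0.37) and the PAR bZIP group (median 0.43) lie to the right of 0 and the heat shock list (median -0.20) to the left.

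Other cell types varied between the sections and are given beside these values. The cardiac muscle list, whose genes are active in the muscle sleeves of mouse pulmonary veins, had 8 positive slopes of 8, a median of 1.36, and 6 genes with an unadjusted p of at most 0.05, against 1.67% of all genes with a positive slope. Its median was 0.69 under median centring and 0.91 without a dose term. Its level over the 18 arrays nevertheless spanned from -2.12 to 2.07 in the high and from -2.52 to 1.84 in the low group around the median array. Skeletal muscle genes were raised in mice 17 (6.32) and 19 (6.09), of which mouse 17 (D3) is in the low group, and lay between -0.21 and 0.13 on the other low arrays. Keratinocyte genes were raised in the same 2 mice (3.32 and 3.78). Without both mice the index slopes of Dbp, Arntl and the other 11 clock genes followed across alternatives kept their direction. Alveolar type 2 genes lay between -0.23 and 0.12 in the high and -0.24 and 0.19 in the low group. Immune cell lists had negative slopes for the most part, 8 of 8 for B cells (median -0.11) and 8 of 8 for T cells (median -0.12). Neutrophils had 9 of 10 (median -0.07). Of these, 2 (20% of the list) had an unadjusted p of at most 0.05, against 2.37% of all genes. With slide in the fit these medians were -0.23, -0.23 and -0.17, and without a dose term 0.00, -0.02 and -0.06. Under median centring they were -0.01, 0.01 and -0.07. When single mice were left out they ranged from -0.18 to -0.03, from -0.25 to -0.06 and from -0.14 to -0.05. The levels of all 3 lists overlapped between the groups, with neutrophils from -0.44 to 0.11 in the high and -0.16 to 0.44 in the low arrays. The part of cardiac muscle or immune cells in the slopes was not tested.

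In liver and forestomach of the 12 mice, arrays the ranking did not use, the groups were compared by limma with dose group fitted. No probe passed the adjusted limit in liver (0 of 23611, 0%) or forestomach (0 of 25305, 0%), while 901 (3.82%) and 338 (1.34%) had an unadjusted p of at most 0.05. Of 16 clock genes tested in liver, 6 had an unadjusted p of at most 0.05. Among them Dbp differed by 2.15 ± 0.70 (SE), Arntl by -1.30 ± 0.43, Nfil3 by -1.02 ± 0.33, Bhlhe40 by 0.88 ± 0.34 and Nr1d2 by 0.71 ± 0.32, and all 16 had an adjusted p of 0.999. Of 13 tested in forestomach, 3 did, namely Dbp (1.02 ± 0.40), Nr1d2 (0.65 ± 0.26) and Bhlhe40 (0.56 ± 0.23), with adjusted p of 1.

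Whether a gene follows Dbp differently in lung and liver was tested with the forestomach index alone, over 36 arrays of lung and liver. That index is measured on other arrays of the same mice. In 3 of 32704 probes (0.00917%) the lung slope differed from the liver slope at an adjusted p of at most 0.05. None was a clock gene. Tspan4 had a slope of 0.41 in lung and -0.15 in liver, a difference of 0.56 ± 0.10 (SE, adjusted p = 0.0411 by limma). Chka, choline kinase alpha, had 0.12 in lung and -0.48 in liver, a difference of 0.60 ± 0.10 (SE, adjusted p = 0.0332). Gnat1, a transducin subunit of rod photoreceptors, had 0.03 in lung and 0.68 in liver, but was not well above background on any lung array, so that its lung slope is that of a probe at background. Hlf had a lung slope steeper by 0.47 than its liver slope, with an adjusted p of 0.609, and for Dbp, Arntl and Nr1d1 the slopes differed by -0.06, -0.06 and 0.00. With mouse as a replicate block, since lung and liver came from the same animals, the adjusted p values were 0.0185 for Tspan4, 0.0172 for Chka and 0.00201 for Gnat1. With slide in the fit they were 0.324, 0.545 and 0.0899, and none passed.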

How the data were processed

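Per the file headers, Feature Extraction 10.7.3.1 gave the median Cy5 and Cy3 intensity of each spot, with flags, on 56 arrays. The authors also deposited a table of log2 ratios, which ranked the lung arrays. Here the log2 ratio was normalized by loess within each array without background subtraction (limma 3.58.1, R 4.3.3), as the study's methods describe. Control spots (3671) and non-uniform spots were left out, and 55681 probes remained, of which 26413 (47.4%) were named through RefSeq (GRCm38.p6). No dyes were swapped, so that dye bias cancels only between arrays. Probes well above background on at least 3 arrays were tested by lmFit and eBayes, two-sided, adjusted by Benjamini-Hochberg over all probes of a fit, with an adjusted p of at most 0.05 called. A cell type level is the mean log2 ratio of its markers minus the median array. The fits were tested on simulated data. On the lung arrays 49.0 to 56.7% of spots were well above background in Cy5, and on the liver arrays 34.5 to 46.4%. The forestomach arrays were uneven, with 40.4 to 51.7% on slide 1 of that tissue and 18.9 to 34.9% on its other slides. The number of arrays limits the precision.

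Lung and liver arrays with the same mouse number came from 1 animal. Over probes, their deviations from dose-group means correlated at a median of 0.134 (lowest 0.0464, highest 0.274), and 15 of 18 lung arrays correlated best with their own mouse. Named genes were all clock list members, the 6 highest and 6 lowest dose-adjusted lung differences among genes well above background on all 12 arrays whose groups do not overlap, and any called beyond the clock in the lung index, liver or forestomach fits, of which there were none. Genes called in an alternative or with different slopes in lung and liver, and list members, were named after their values were seen. One probe per gene was used, the one brightest in lung. The values of 1 list member are not reported here. The members, lists and tests were chosen with earlier results of these data known. The alternatives were other normalizations, filters, dose terms and indices, slide as a block, array weights and leaving out mice.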

Additional observations from a re-analysis of the deposited data

Results flagged for a closer look

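Within dose groups, 1 lung array stood apart from the others of its group in 3 of 111 gene and group combinations, each with 5 mice; D2, with 3 lung arrays, was not examined. Chance alone marks about 1 in 20 such groups. Per1 had a log2 ratio of -0.56 in D3 mouse 17, against 0.17 to 0.46 in the other 4 D3 mice. Zfp346 had -0.48 in the same mouse, against -0.13 to -0.01. Mouse 17 is in the low Dbp group and is 1 of the 2 D3 mice, with mouse 19, whose lung sections had raised skeletal muscle genes. Stip1 had -0.30 in D1 mouse 7, against -1.89 to -1.62, and this mouse is also in the low group.

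The slope on the forestomach Dbp index differed between lung and liver at 3 named probes by the test of the difference itself. The lung slope minus the liver slope was 0.60 for Chka, 0.56 for Tspan4 and -0.65 for Gnat1. When single mice were left out, the adjusted p by limma reached 0.18 for Chka, 0.216 for Tspan4 and 0.0377 for Gnat1. With slide in the fit it was 0.545, 0.324 and 0.0899, and none passed. Gnat1 was well above background on 18 liver and 0 lung arrays, so that it was tested only through liver and its difference is against a probe at background.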

How the results depend on the processing

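The number of lung probes called on the index was 0 with dose groups. It was 21 without a dose term, 13 with dose step linear, 12 with array weights, 5 with forestomach Dbp alone, 3 with skeletal muscle as a covariate and 1 with the index of 5 clock genes. Leaving out single mice gave 0 to 3, with 3 without D0 mouse 1 and 1 without D1 mouse 10. The liver count went from 0 to 1 without the filter on dim probes and with array weights, and to 2 with 5 against 5 mice or with lung Dbp as a continuous term over 18 mice. It ranged from 0 to 3 when single mice were left out, with 3 without D0 mouse 5, 2 without D2 mouse 13 and 1 without D3 mouse 17. The forestomach count was 0 in every alternative run. The count of slopes that differ between lung and liver went from 3 to 1 with the authors' table or without mice 17 and 19, to 0 with slide as a block, and ranged from 1 to 4 without single mice (1 without any 1 of 12 mice). It stayed at 3 with mouse as a replicate block. The relation of lung with liver Dbp fell to r = 0.393 within slides.

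Of 13 clock genes, all kept the direction of their slope in every alternative with a value except median centring, which leaves the dye trend with intensity in the ratios, in the index too. Under it Cry2 had -0.17, Tef -0.04 and Hlf 0.00 (just below 0), and the median slope of all genes moved to -0.10. The lung difference of Stip1 turned to 0.03 with slide as a block, and of the other values for the 12 lung differences 31 moved by more than the spread between mice and 172 did not. The cause of these changes was not tested. Each slope rests on 18 arrays, and the dose-adjusted lung difference on 6.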
